A study of Mus musculus with 16 samples.

Results

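The Kruppel-like factors described here are 10 genes, Klf2, Klf3, Klf4, Klf5, Klf6, Klf7, Klf9, Klf10, Klf11 and Klf13, chosen by their symbols among 54532 genes measured by bulk RNA-seq of mouse pulmonary endothelial cells (ECs). They are 10 of the 17 measured genes whose symbol is Klf with a number, and the other 7 were used only as neighbours in the family. ECs of the first experiment came from male wild-type C57/BL6J mice, 8 weeks old, that had received saline (n = 4) or 10 mg/kg lipopolysaccharide (LPS, n = 6) into the trachea. ECs of the second experiment came from Fgfr1 iΔEC/iΔEC mice (n = 3), in which the floxed gene of fibroblast growth factor receptor 1 is deleted by a tamoxifen-induced Cre recombinase (VE-cadherin-CreERT2), and from littermates with the genotype Fgfr1 loxP/loxP (n = 3). All mice of the second experiment were given tamoxifen and then the lower LPS dose of 2 mg/kg, and lungs were taken at 24 h in all groups. The sources used here do not say whether the loxP/loxP littermates carried the Cre transgene, and the mice of this experiment are described as adults, with no age in weeks and no sex given. Lung cells were depleted of CD45+ cells on beads and then selected on CD31 beads, so the fraction can hold any CD31+ cell and what sticks to the beads. No source says whether a library pooled several mice, so p-values measure the spread between these libraries.

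Kruppel-like factors (KLFs) are transcription factors with 3 zinc fingers at the C-terminus that bind CACCC and GC-rich boxes in promoters. In endothelium, laminar blood flow acts through the kinases MEKK3, MEK5 and ERK5 and the MEF2 factors to raise KLF2 and KLF4, which hold vessels in a quiescent, vasodilating and non-thrombotic state. Other members are known as rapidly induced injury genes (Klf6), as early genes of TGF-beta signaling that act as repressors (Klf10 and Klf11), as a hormone-induced repressor (Klf9), as a repressor that recruits CtBP (Klf3), as a close relative of Klf6 (Klf7), as a factor known from T lymphocytes (Klf13) and as an epithelial factor (Klf5).

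Promoter sequences are shown for Klf2, Klf4, Klf6 and Klf9, because most of the results below turn on them. Sequences are those of RefSeq on GRCm38.p6, from 250 to 51 bases before the annotated start, 5′ to 3′ on the strand of the gene. Of the 10 genes, 8 matched the table of promoters, and Klf5 and Klf10 did not. Capitals mark a MEF2 match in Klf2 (bases -118 to -109), an E-box in Klf4 (-182 to -177), 4 CCAAT boxes in Klf6 and, in Klf9, CCAAT boxes, of which 2 overlap, together with an AP-1 match (-89 to -83). CCAAT boxes on the other strand read ATTGG.
Klf2, chr8:72318812-72319011, plus strand: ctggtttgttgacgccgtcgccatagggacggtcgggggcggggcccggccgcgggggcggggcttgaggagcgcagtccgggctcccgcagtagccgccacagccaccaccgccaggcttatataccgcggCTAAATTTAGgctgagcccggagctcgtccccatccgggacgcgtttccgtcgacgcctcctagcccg
Klf4, chr4:55532526-55532725, minus strand: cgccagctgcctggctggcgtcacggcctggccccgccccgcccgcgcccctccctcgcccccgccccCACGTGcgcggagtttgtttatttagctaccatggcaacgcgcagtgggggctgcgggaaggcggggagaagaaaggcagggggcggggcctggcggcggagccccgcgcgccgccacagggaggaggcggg
Klf6, chr13:5861239-5861438, plus strand: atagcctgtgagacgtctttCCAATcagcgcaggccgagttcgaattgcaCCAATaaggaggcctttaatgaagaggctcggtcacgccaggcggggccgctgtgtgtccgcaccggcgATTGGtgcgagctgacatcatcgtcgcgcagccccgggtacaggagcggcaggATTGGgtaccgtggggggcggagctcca
Klf9, chr19:23140976-23141175, plus strand: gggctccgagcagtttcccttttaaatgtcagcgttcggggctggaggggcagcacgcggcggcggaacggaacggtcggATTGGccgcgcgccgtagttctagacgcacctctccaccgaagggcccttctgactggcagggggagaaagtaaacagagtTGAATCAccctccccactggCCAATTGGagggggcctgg
Among the 300-base windows of the 8 matched factors, which run from 250 bases before the start to 50 after it, 7 held the GC box GGGCGG, against 35.7% of all 32851 windows. The CACCC box CCACCC was in 4 (31.5% of all windows), the CCAAT box CCAAT in 4 (37.4%), the E-box CACGTG in 3 (7.2%) and the AP-1 letters TGANTCA in 1 (7.8%). The MEF2 consensus was found in Klf2 alone among the 8 (3.2% of all windows). No window of the 8 held TATAAA (13.6%), the cyclic AMP response element TGACGTCA (1.8%), a CArG box (1.6%) or an NF-kB consensus (8.5%). Both strands were searched, and the letters of a GC box can overlap those of other boxes. The windows were rich in G and C, at a median of 70.6% and a range of 58.3% to 77.7%, where the median of all windows was 52.7%.

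The genes lie on 10 different chromosomes (GRCm38). Klf2 (chr8:72319033-72321656, plus strand) and Klf4 (chr4:55527143-55532466, minus strand) are compact, with 3 and 5 exons, and encode 354 and 483 residues. Klf6 (chr13:5861482-5870394, plus strand) has 4 exons and Klf9 (chr19:23141226-23166911, plus strand) has 2. Klf10 (chr15:38291463-38300706, minus strand) and Klf11 (chr12:24651274-24662789, plus strand) each have 4 exons. Klf3, Klf7, Klf9 and Klf13 are overlapped by other annotated genes, Klf9 only by Mir1192 on its own strand. The strandedness of the libraries is not stated. Reads of Klf3, Klf7 or Klf13 and of a gene on the opposite strand therefore cannot be told apart. Of these opposite-strand genes Gm27252, at Klf13, had the most reads. It had 12 to 290 per library in the first experiment, where Klf13 had 2830 to 5655.

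Levels are given as FPKM, the deposited unit, which divides reads by gene length and library size. Reads on genes numbered 13478726 to 18807007 in the saline group, 17840221 to 19043015 in the LPS group, 15969575 to 17002788 in the Fgfr1 loxP/loxP group and 16642177 to 16943522 in the Fgfr1 iΔEC/iΔEC group. Of the factors, Klf2 rested on 5557 to 9456 reads per saline library and Klf5 on 34 to 60. One saline library stood apart. Over all genes tested, saline 1 correlated with the other saline libraries at r = 0.911 to 0.920, where those correlated with each other at 0.961 to 0.984. It was the highest saline library in Klf3, Klf4, Klf5, Klf6, Klf7, Klf9 and Klf13, and results for these factors are therefore also given without it.

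In saline ECs the order of mean levels was Klf2, Klf4, Klf9, Klf6, Klf13, Klf3, Klf10, Klf7, Klf11 and Klf5. Klf2 was at 228.0 ± 24.0 FPKM (SD, n = 4), Klf4 at 112.4 ± 72.6 FPKM and Klf9 at 64.6 ± 42.0 FPKM. From Klf6 to Klf11 the means ran from 40.2 to 14.5 FPKM, and Klf5, the epithelial member, was at 0.54 ± 0.25 FPKM. Each neighbouring pair in this order overlapped in range, apart from Klf11 and Klf5. From Klf2 to Klf3 these overlaps rested on saline 1. Without it the saline ranges were 202 to 260 FPKM for Klf2, 65.1 to 84.5 for Klf4 and 37.1 to 50.5 for Klf9. Klf6 was then at 26.8 to 30.2 FPKM, Klf13 at 21.04 to 23.8 and Klf3 at 17.1 to 17.6, so none of these overlapped. From Klf3 to Klf11 neighbours still overlapped. In the LPS group Klf2 (531.5 ± 79.0 FPKM, SD, n = 6), Klf4 (189.8 ± 54.4 FPKM) and Klf6 (78.5 ± 9.0 FPKM) formed the top of the order without overlap between them, and Klf9 had moved below Klf13. The same 3 genes led without overlap in both groups of the second experiment.

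**Figure D1:**
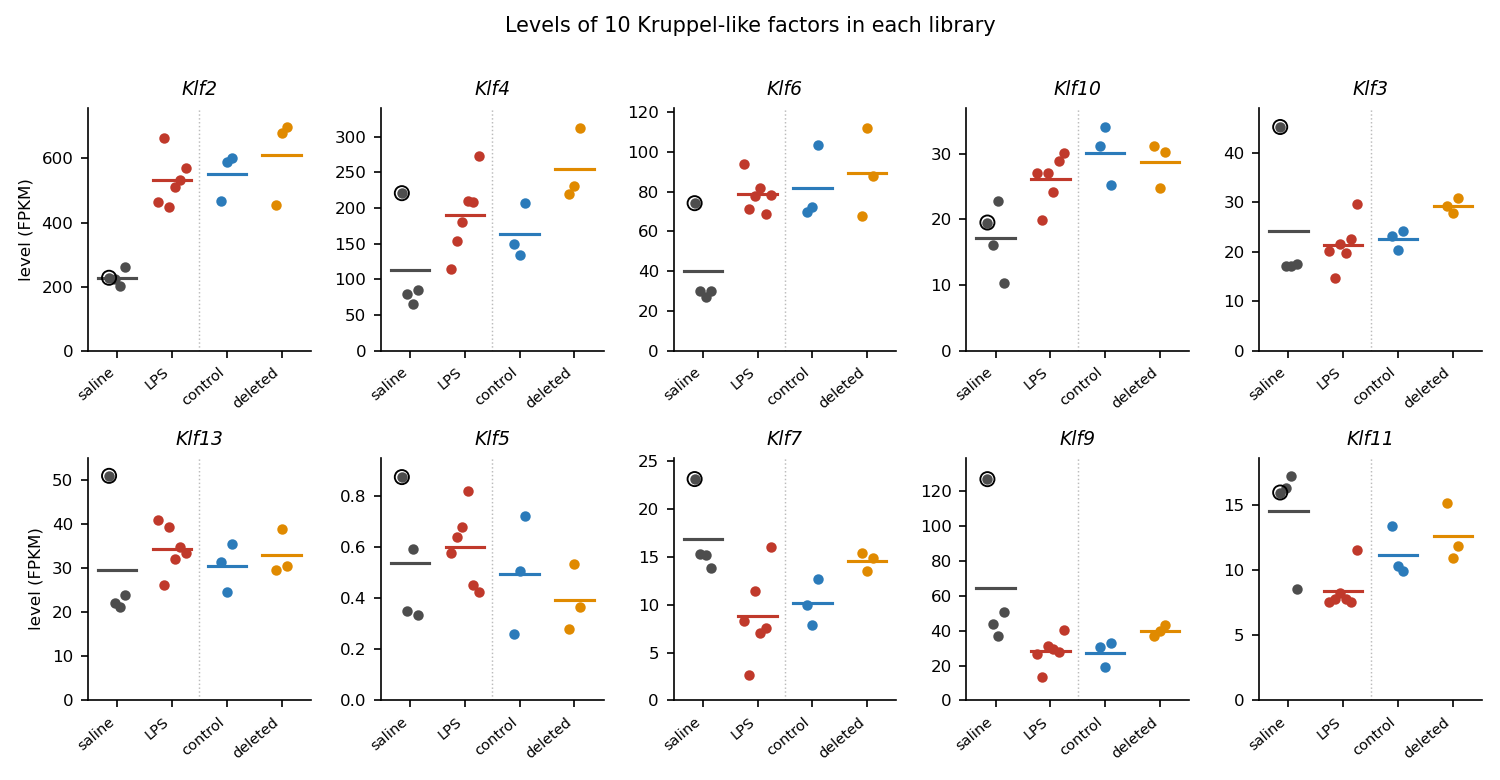
Level of each factor in FPKM (vertical axes, linear from 0) in every library of the saline, LPS, Fgfr1 loxP/loxP (control) and Fgfr1 iΔEC/iΔEC (deleted) groups; points are libraries, bars are group means, the black ring marks saline 1, and the dotted line parts the 2 experiments, which were normalized separately. The LPS libraries of Klf2 sit between 449 and 665 FPKM, above all 4 saline libraries, and saline 1 sits far above the other saline libraries for Klf3, Klf4, Klf6, Klf9 and Klf13.

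LPS against saline asked how the pulmonary endothelium responds to a lung-injuring dose. Of the 10 factors, 4 were higher in the LPS group (Klf2, Klf4, Klf6 and Klf10), 3 were lower (Klf7, Klf9 and Klf11) and 3 were not called (Klf3, Klf5 and Klf13), by limma on log2(FPKM + 1) at a Benjamini-Hochberg adjusted p of 0.05 or less over 14893 genes. Over all genes tested, 29.5% were called higher and 23.7% lower, so the 10 factors were called in about the shares of the whole table. The groups did not overlap in 1 factor, Klf2, which was higher, and in 0 factors that were lower, while 22.7% of all genes were apart with LPS higher and 16.7% apart with LPS lower. The 10 factors had a median log2 fold change of 0.18, and all genes together one of 0.01. Without saline 1 these medians were 0.43 and 0.02. These are levels in a bulk fraction, in which fewer cells of a type and less RNA per cell cannot be told apart.

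Klf2, the flow-induced factor of quiescent endothelium, was at 227, 222, 202 and 260 FPKM in the saline libraries, and in the LPS libraries its lowest, median and highest levels were 449, 522 and 665 FPKM. Every LPS library was above every saline library. Its log2 fold change was 1.21 (limma, with an SE, or standard error, of 0.17, adjusted p = 0.000153), which is 2.31-fold. Saline 1 did not stand apart for this gene, and the change without it was also 1.21 (adjusted p = 0.00034). Klf2 was called higher under each of the 20 alternatives run, with log2 fold changes from 0.66 (quantile normalization) to 1.88 (scaling on endothelial markers).

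Klf4, which shares targets with Klf2 in endothelium, was at 221, 79.4, 65.1 and 84.5 FPKM in the saline libraries. In the LPS libraries its lowest, median and highest levels were 115, 194 and 273 FPKM. Saline 1 lay above 5 of the 6 LPS libraries, and the other 3 saline libraries lay below all of them. On the log2 scale the change was 0.88 (SE 0.34, adjusted p = 0.0451), or 1.26 without saline 1 (adjusted p = 0.00174). The call was lost under 13 of the 20 alternatives. Leaving out any of saline 2, 3 or 4 gave log2 fold changes of 0.77, 0.68 and 0.80 with adjusted p = 0.117, 0.136 and 0.109, and leaving out any of LPS 2 to 6 gave adjusted p from 0.0532 to 0.0807.

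Klf6, an injury-induced gene, was at 74.1, 29.8, 26.8 and 30.2 FPKM in the saline libraries and at 68.5 (lowest), 78.0 (median) and 94.0 FPKM (highest) in the LPS libraries. All LPS libraries were above saline 2, 3 and 4, and saline 1 was at the level of the LPS group. Klf6 changed on the log2 scale by 1.07 (SE 0.25, adjusted p = 0.00412), and without saline 1 it was 1.41 (adjusted p = 1.34e-05). Klf6 was called higher in each of the 20 alternatives, from 0.63 to 1.73. Klf10, the TGF-beta-inducible early gene, was at 19.5, 16.1, 22.8 and 10.2 FPKM in saline and at 19.8 (lowest), 27.0 (median) and 30.0 FPKM (highest) in LPS. Its groups overlapped between LPS 2 and saline 3. Klf10 had a log2 fold change of 0.62 (SE 0.20, adjusted p = 0.0201), and without saline 4, its lowest library, it was 0.41 (adjusted p = 0.0585).

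Klf9, the hormone-induced repressor, was at 127, 43.7, 37.1 and 50.5 FPKM in the saline libraries. In the LPS group its lowest, median and highest levels were 13.2, 28.8 and 40.1 FPKM. LPS 6 at 40.1 FPKM lay above saline 3, so the groups overlapped by that pair, and saline 1 was far above every other library. Klf9 had a log2 fold change of -1.06 (SE 0.35, adjusted p = 0.0258), and without saline 1 it was -0.68 and missed the threshold (adjusted p = 0.0602).

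Klf7 was at 23.2, 15.3, 15.2 and 13.9 FPKM in saline and at 2.63 (lowest), 7.93 (median) and 16.1 FPKM (highest) in LPS. LPS 6 lay above 3 of the 4 saline libraries and the other LPS libraries lay below all of them. For Klf7 this gave a log2 fold change of -0.98 (SE 0.35, adjusted p = 0.0339). Without saline 1 it was -0.83 (adjusted p = 0.0884), and the call was lost also without saline 2 (-1.02, adjusted p = 0.0592), saline 3 (-1.02, 0.0552), LPS 1 (-0.99, 0.0505), LPS 4 (-0.95, 0.0607) or LPS 5 (-0.97, 0.057). Klf11, a SIN3-recruiting repressor and the closest relative of Klf10, was at 15.95, 16.3, 17.2 and 8.57 FPKM in saline and at 7.57 (lowest), 7.80 (median) and 11.5 FPKM (highest) in LPS. Saline 4 was the low library of its group and LPS 6 the high one of the other, and these 2 made the overlap. Its log2 fold change was -0.69 (SE 0.19, adjusted p = 0.00996), and the call was kept when any of the 10 libraries was left out, at -0.91 to -0.60.

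Klf3, the CtBP-binding repressor, was at 45.2, 17.2, 17.1 and 17.6 FPKM in saline and at 14.7 (lowest), 20.9 (median) and 29.6 FPKM (highest) in LPS, with a log2 fold change of -0.07 (95% interval -0.67 to 0.53, adjusted p = 0.843). The sign of this value was not stable. It was 0.26 without saline 1 (adjusted p = 0.212), 0.03 without LPS 2 (0.941) and 0.57 with scaling on endothelial markers (0.135). Klf13 was at 50.8, 21.9, 21.04 and 23.8 FPKM in saline and at 26.1 (lowest), 34.0 (median) and 40.8 FPKM (highest) in LPS. All LPS libraries of Klf13 lay between saline 1 and the other saline libraries. The log2 fold change of Klf13 was 0.30 (95% interval -0.21 to 0.81, adjusted p = 0.289), and without saline 1 it was 0.59 and passed the threshold (adjusted p = 0.00516). Klf5 was at 0.332 to 0.872 FPKM in saline and 0.424 to 0.819 FPKM in LPS, on 34 to 75 reads per library, and the groups overlapped (log2 fold change 0.07, 95% interval -0.23 to 0.37, adjusted p = 0.702, and 0.17 without saline 1, adjusted p = 0.28). Without saline 1, then, 5 factors were called higher (Klf2, Klf4, Klf6, Klf10 and Klf13) and 1 lower (Klf11), while 31.2% of all 14767 genes of that fit were called higher and 25.5% lower.

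**Figure D2:**
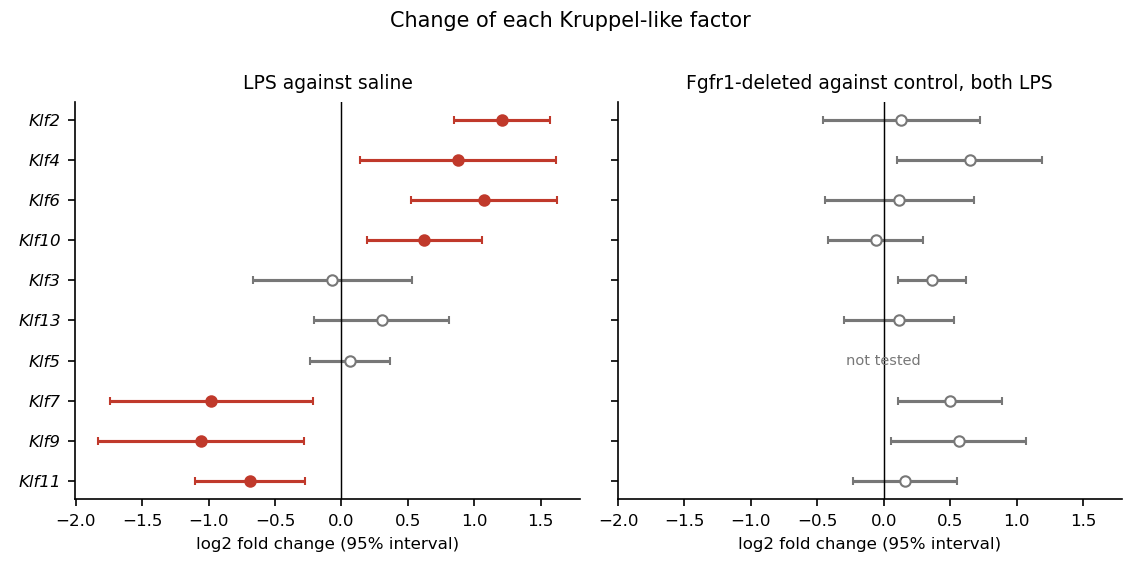
Log2 fold change of each factor on the log2(FPKM + 1) scale (horizontal axis) with its 95% interval from limma, for LPS against saline (left) and for Fgfr1 iΔEC/iΔEC against loxP/loxP mice (right); filled red points passed an adjusted p of 0.05, open grey points did not. On the left 4 filled points lie above 0 and 3 below it, and on the right no point is filled and Klf5 was under the filter on low levels.

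The make-up of the family was described within each library. The summed level of the 10 factors was 805, 462, 425 and 500 FPKM in the saline libraries and 802 to 1082 FPKM in the LPS libraries. Klf2 made up 28.3%, 48.1%, 47.6% and 52.1% of this sum in saline and 52.6% to 68.3% in LPS. Within a library the ratio of Klf2 to Klf9, which does not depend on how libraries are scaled, was 1.79, 5.09, 5.45 and 5.15 in saline and 14.2 to 50.3 in LPS, so the groups were apart. The ratio of Klf6 to Klf3 was 1.56 to 1.74 in saline and 2.65 to 4.83 in LPS, also without overlap and with saline 1 (1.64) inside its group. By contrast the ratio of Klf2 to Klf4 was 1.03, 2.80, 3.11 and 3.08 in saline and 2.08 to 4.34 in LPS, and the groups overlapped. These ratios were chosen after the values had been seen and carry no test.

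The number of factors called lower depended on the scaling. With the libraries scaled on 10 endothelial markers, the median change of the whole table moved to 0.52 (log2), and 5 factors were higher (Klf2, Klf4, Klf6, Klf10 and Klf13) and 0 were lower, with 6819 genes (45.8%) of the whole table higher and 908 (6.10%) lower where the deposited scale gave 4399 and 3529. On that scale Klf9 was at -0.40 (adjusted p = 0.386), Klf7 at -0.36 (0.453) and Klf11 at -0.08 (0.806). Scaled on total FPKM, which moved the median of all genes to -0.24, Klf2 (0.87, adjusted p = 0.00176) and Klf6 (0.73, 0.0181) stayed higher, Klf7, Klf9 and Klf11 stayed lower, and Klf4 (0.54, 0.176) and Klf10 (0.30, 0.25) were not called. That scaling gave 2720 genes (18.3%) higher and 4869 (32.7%) lower, and quantile normalization 3645 and 4174.

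**Figure D3:**
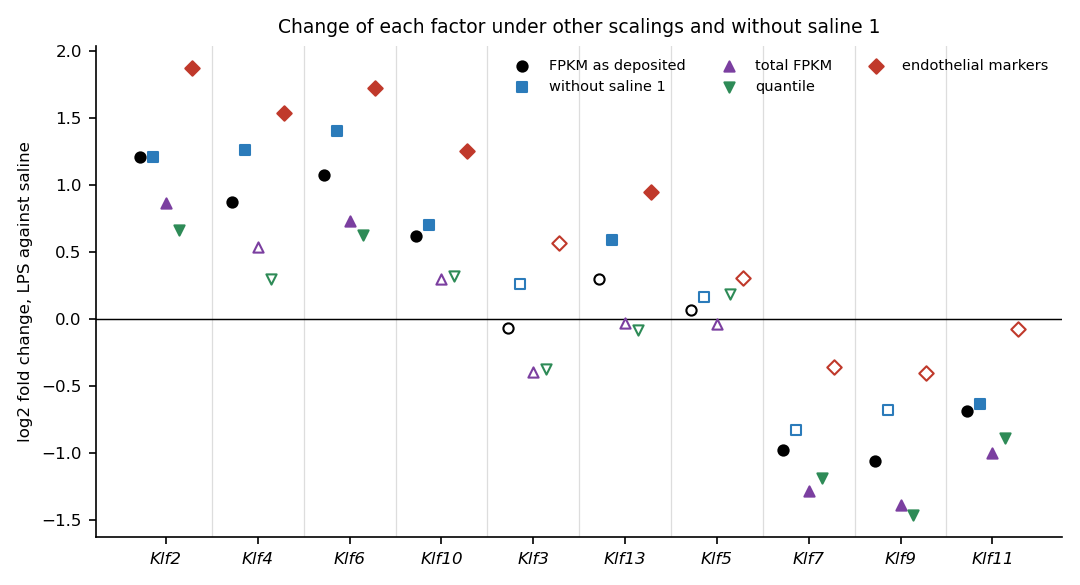
Log2 fold change of each factor in LPS against saline (vertical axis) on the deposited FPKM scale, without saline 1, and after scaling on total FPKM, quantile normalization or scaling on endothelial markers; filled symbols passed an adjusted p of 0.05. Klf2 and Klf6 are filled and above 0 in all 5 fits, while Klf7 (-0.36), Klf9 (-0.40) and Klf11 (-0.08) are open when endothelial markers set the scale.

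Of the rest of the family and the related SP factors, 8 of 16 genes had enough reads to test, of which 1 was higher and 4 were lower (median log2 fold change -0.29), or 0 and 3 without saline 1. Of all genes 29.5% were higher and 23.7% lower, or 31.2% and 25.5% without saline 1. Klf15, a glucocorticoid-responsive relative, had a mean of 8.11 ± 9.75 FPKM in saline (SD, n = 4) and of 1.57 ± 0.36 FPKM in LPS (SD, n = 6), and its log2 fold change was -1.35 (adjusted p = 0.0227). Its saline values were 22.7 FPKM in saline 1 and 2.63 to 3.91 FPKM in the others, all above the LPS libraries. Without saline 1 the change of Klf15 was -0.73 (adjusted p = 0.0024), and its call was lost in 3 of the 20 alternatives (adjusted p up to 0.0907). Klf12, a CtBP-binding repressor like Klf3, changed by -1.33 (adjusted p = 0.000355), Sp4 by -0.65 (0.0047) and Sp1 by -0.46 (0.0354). Scaled on endothelial markers, Sp4 was at -0.11 and Sp1 at 0.17, and neither was called. For Sp1 the call was also lost without saline 1 (-0.47, adjusted p = 0.0526), as it was without any other saline library, LPS 4 or LPS 5.

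The pathway that raises Klf2 and Klf4 under flow had genes called in both directions. Of 14 genes of the MEKK3-ERK5-MEF2 cascade and the CCM complex that restrains it, 3 were higher and 5 lower (median -0.27), beside 29.5% higher and 23.7% lower over all genes, so the list is not set apart by this count. Scaled on endothelial markers, 3 were higher and 1 lower, where all genes were at 45.8% and 6.10%. Hdac7, a class IIa deacetylase that holds MEF2 inactive, had the largest fall of the list. Its mean was 89.2 ± 11.8 FPKM in saline (SD, n = 4) and 27.9 ± 5.86 FPKM in LPS (SD, n = 6), which is -1.66 on the log2 scale (adjusted p = 2.58e-05), or -1.01 when scaled on endothelial markers (adjusted p = 0.000775). Heg1, the receptor that anchors the CCM complex, fell by 1.10 on the log2 scale and Mef2c by 0.85 (adjusted p = 0.000889 and 0.000331), while Ccm2, a scaffold of the complex, rose by 1.01 (adjusted p = 7.73e-05). Scaled on endothelial markers, Heg1 was at -0.45 and Mef2c at -0.33, and neither was called (adjusted p = 0.165 and 0.238). Ccm2 was at 1.63 on that scale (adjusted p = 0.000136). Mapk7, the gene of ERK5, was outside the rule for named genes and is given after its value was seen, at 0.51 (adjusted p = 0.0339). With endothelial scaling Mapk7 was at 1.11 (adjusted p = 0.00578). Saline 1 had its lowest level, 4.99 FPKM, and without that library the change was 0.29 and missed the threshold (adjusted p = 0.0504), as it did without saline 2 or LPS 1, 2, 3 or 5 (adjusted p = 0.0529 to 0.0608).

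Genes that KLF2 and KLF4 are known to raise in cultured endothelium were called in both directions. Of 9 tested genes of 11, 2 were higher and 4 lower (median -0.10), beside 29.5% and 23.7% of all genes, and without saline 1 the counts were the same and the median was 0.23. Gja4, the gap junction gene of connexin 37, changed by -1.62 (adjusted p = 0.00052), the water channel gene Aqp1 by -1.33 (0.00404) and the receptor gene Tek by -1.20 (0.00108). Scaled on endothelial markers, these values were -0.96, -0.66 and -0.53, and each was called (adjusted p = 0.00299, 0.0116 and 0.0255). Ass1, an enzyme of arginine synthesis, rose by 2.06 (adjusted p = 1.66e-05), with means of 9.44 ± 2.13 FPKM in saline and 43.1 ± 10.6 FPKM in LPS (SD, n = 4 and 6). With endothelial scaling Ass1 was at 2.68 (adjusted p = 2.62e-05), and S1pr1, not called on the deposited scale, was higher at 0.91 (0.00638). Nos3, the endothelial nitric oxide synthase gene, and Thbd, the gene of thrombomodulin, are the best-known targets and are named after their values were seen. Nos3 was at 31.3, 12.2, 11.1 and 12.5 FPKM in saline and 8.80 to 21.8 FPKM in LPS (log2 fold change -0.10, adjusted p = 0.788). This sign was not stable. The value was 0.23 without saline 1 (adjusted p = 0.428), 0.02 without LPS 1 (0.956) and 0.52 when scaled on endothelial markers (0.112). Thbd was at 520 to 627 FPKM in saline and at 146 to 404 FPKM in LPS, without overlap, and its log2 fold change was -1.10 (adjusted p = 0.00422), or -0.43 when scaled on endothelial markers (adjusted p = 0.0609).

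Genes that KLF2 and KLF4 are known to lower, mostly of inflammation and coagulation, were higher in 6 of 11 cases and lower in 0 (median 1.31), and higher in 9 of 11 without saline 1, where all genes were higher in 29.5% and 31.2% of cases in these fits. The adhesion gene Sele rose by 3.36 and Icam1 by 2.35 on the log2 scale (adjusted p = 1.42e-05 and 8.38e-06). Ccl2, the chemokine of monocytes, was at 52.7 ± 15.3 FPKM (SD, n = 6) in the LPS group, and in the saline libraries it had 0 to 6 reads. Of 11 cofactors and ubiquitin ligases that act on KLFs, 2 were higher (Sin3b by 0.81 and Hdac1 by 0.46) and 2 lower (adjusted p = 0.00122 and 0.00792 for the former), with a median of -0.01, where 29.5% of all genes were higher and 23.7% lower. Kat2b, an acetyltransferase, was at -0.33 (adjusted p = 0.0243), and at 0.31 when scaled on endothelial markers (0.237). On that scale Crebbp, the other lower gene, was at 0.13 (0.732), and neither was called. Sin3b was at 1.43 and Hdac1 at 1.11, and Hdac2 (0.75), Ctbp1 (0.89) and Ctbp2 (0.72) were also called higher. Of all genes 45.8% were higher and 6.10% lower on it.

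Klf10 and Klf11 are early genes of TGF-beta signaling, and they moved in opposite directions. Of 10 genes of that pathway, 5 were higher and 2 lower (median 0.45), beside 29.5% and 23.7% of all genes. The ligand gene Tgfb1 rose by 1.48, the receptor gene Tgfbr1 by 1.27 and the corepressor gene Tgif1 by 1.14 on the log2 scale (adjusted p = 1.02e-05, 0.000215 and 0.00189). The inhibitor gene Smad7 fell by 0.79 (adjusted p = 0.00312), and was at -0.14 when scaled on endothelial markers (adjusted p = 0.553). On that scale Acvrl1, the other lower gene, was at 0.01 (0.969). Tgfb1, Tgfbr1 and Tgif1 were at 2.13, 1.86 and 1.68, and Smad4 (0.69, 0.015) and Skil (0.98, 0.0251) were also called higher. Of all genes 45.8% were higher and 6.10% lower on it.

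Klf4 and Klf6 are also induced by acute stress, and Klf9 and Klf15 by glucocorticoids. Of 16 immediate early and stress genes, 12 were higher and 1 was lower (median 1.43), beside 29.5% and 23.7% of all genes. Nr4a1 rose by 3.79, Ier3 by 2.49, Atf3 by 2.13 and Egr3 by 1.65 (adjusted p = 1.74e-05, 5.32e-06, 0.00193 and 0.000519). The summed level of this list was 1746, 754, 834 and 736 FPKM in the saline libraries and 1829 to 2914 FPKM in the LPS libraries, so saline 1 was closest to the LPS group. Of 7 glucocorticoid genes 1 was higher, Fkbp5 (3.37, adjusted p = 0.000446), and 1 lower, the receptor gene Nr3c1 (-0.92, 0.00148, and -0.27, 0.409, when scaled on endothelial markers). Without saline 1, 4 of the 7 were higher and 1 lower, beside 31.2% and 25.5% of all genes. The list summed to 742, 157, 135 and 171 FPKM in saline and to 236 to 269 FPKM in LPS. Saline 1 was the highest of the 10 libraries of this experiment in this sum, as it was in Klf3, Klf5, Klf7, Klf9, Klf13 and Klf15, and the part of these lists in the results of the factors was not tested.

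**Figure D4:**
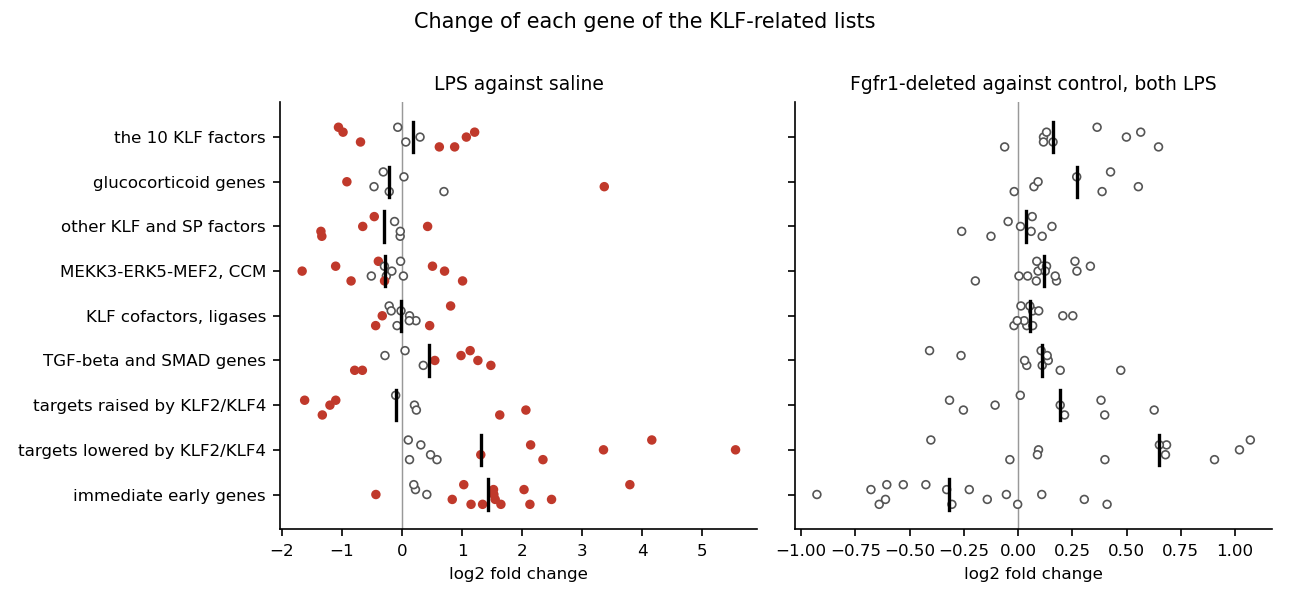
Log2 fold change of each tested gene (points) in the KLF-related lists for LPS against saline (left) and Fgfr1 iΔEC/iΔEC against loxP/loxP mice (right); red points passed an adjusted p of 0.05, open points did not, and black bars are list medians. The horizontal scales differ, and only the left panel has red points, with 12 immediate early genes and 6 targets lowered by KLF2 and KLF4 to the right of 0.

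Marker lists of the cell types that the bead fraction can hold were counted in the same fit, in which 29.5% of all genes were higher and 23.7% lower. The endothelial markers, of which all 10 were detected in each library, summed to 3061 to 5273 FPKM in saline and 1399 to 3320 FPKM in LPS, with 6 of 10 lower and 0 higher, and their most abundant gene was Cldn5. Of 8 macrophage markers 6 were higher and 0 lower, and they summed to 398 to 1129 FPKM in saline and 1870 to 3994 FPKM in LPS (most abundant Lyz2). Of 8 neutrophil markers 6 were higher, with sums of 71.4 to 1382 FPKM and 1285 to 6628 FPKM (most abundant S100a9), and all 6 leukocyte markers were higher, with 76.5 to 228 FPKM and 641 to 1554 FPKM (most abundant Coro1a). Epithelial markers summed to 1071 to 2848 FPKM in saline and 264 to 944 FPKM in LPS (2 of 10 lower, most abundant Sftpc). Lymphocyte markers were lower in 3 of 5 tested genes (24.0 to 134 and 12.1 to 48.4 FPKM, Cd79a), fibroblast markers in 4 of 6 (36.1 to 62.4 and 19.3 to 45.8 FPKM, Col3a1) and mural markers in 2 of 7 (26.6 to 121 and 33.1 to 58.8 FPKM, Acta2), and erythroid markers were higher in 3 of 4 (6.29 to 25.5 and 20.96 to 74.2 FPKM, Hba-a1). No list had a marker without reads in all libraries of a group. Klf2, Klf4 and Klf6 are also expressed in myeloid cells, and the part of these cells in the results was not tested.

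**Figure D5:**
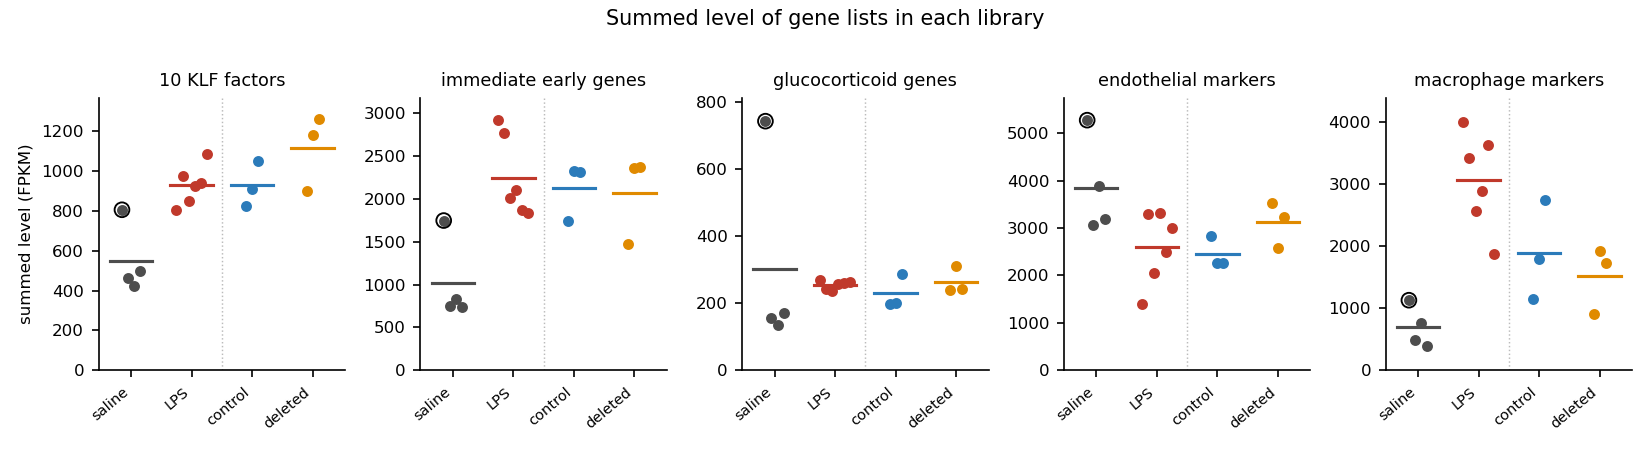
Summed FPKM (vertical axes, linear from 0) of the 10 factors, of immediate early genes, of glucocorticoid genes and of endothelial and macrophage markers in every library; points are libraries, bars are group means, the ring marks saline 1, and control and deleted are Fgfr1 loxP/loxP and Fgfr1 iΔEC/iΔEC mice. Saline 1 is the highest saline library in each panel and reaches 742 FPKM in the glucocorticoid genes, above every other library.

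The second experiment asked what the loss of endothelial Fgfr1 changes under LPS. Fgfr1 itself was at 2.90, 2.91 and 2.59 FPKM in the Fgfr1 loxP/loxP libraries and at 0.683, 1.41 and 1.15 FPKM in the Fgfr1 iΔEC/iΔEC libraries. The groups were apart, with a log2 fold change of -0.88 (SE 0.16), and the adjusted p over 14944 genes was 0.96. By limma 0 genes, or 0% of those tested, passed the threshold in either direction, with 663 genes at an unadjusted p under 0.05, and limma-voom on read numbers gave 0 and 614. None of the 9 tested factors was called. Of them 4 were apart with the Fgfr1 iΔEC/iΔEC group higher (Klf3, Klf4, Klf7 and Klf9) and 0 with it lower, where 6.10% of all genes were apart and higher and 4.07% apart and lower.

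Klf4 was at 149, 133 and 207 FPKM in the Fgfr1 loxP/loxP libraries and at 220, 231 and 312 FPKM in the Fgfr1 iΔEC/iΔEC libraries. All values of the latter group were higher, with a log2 fold change of 0.65 (95% interval 0.10 to 1.19, adjusted p = 0.96). Klf9 was at 30.6, 18.9 and 32.9 FPKM and at 37.1, 39.7 and 43.4 FPKM in these groups (0.56, interval 0.06 to 1.07), and without Fgfr1 loxP/loxP 2, the low library, the change of Klf9 was 0.33. Klf3 was at 23.2, 20.3 and 24.2 FPKM and at 29.2, 27.8 and 30.9 FPKM (0.36, interval 0.11 to 0.62), and Klf7 at 10.0, 7.94 and 12.7 FPKM and at 15.4, 13.6 and 14.9 FPKM (0.50, interval 0.11 to 0.89). Their adjusted p was 0.96 each, so none of these differences passed the test. Scaled on endothelial markers, these 4 values were 0.37, 0.29, 0.09 and 0.24, while the median of all genes moved to -0.21.

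Klf2 was at 466, 588 and 600 FPKM in the Fgfr1 loxP/loxP libraries and at 455, 681 and 697 FPKM in the Fgfr1 iΔEC/iΔEC libraries, which overlap (log2 fold change 0.13, 95% interval -0.46 to 0.72, adjusted p = 0.969). With a library left out, the change of Klf2 ranged from 0.015 (without Fgfr1 loxP/loxP 1) to 0.33 (without Fgfr1 iΔEC/iΔEC 1). Klf6 was at 69.6, 72.4 and 103 FPKM and at 67.8, 112 and 87.7 FPKM (0.12, interval -0.45 to 0.68). With the replicate number as a block the intervals were -0.29 to 0.56 for Klf2 and -0.39 to 0.63 for Klf6, so that changes of either sign lie within them. Klf11 was at 13.4, 10.3 and 9.90 FPKM and at 15.1, 10.9 and 11.9 FPKM in libraries 1, 2 and 3 of these groups, higher in each of the 3 pairs of libraries with the same number (log2 fold change 0.16, interval -0.07 to 0.39 with the block, adjusted p = 0.692). The change of Klf11 turned to -0.10 with scaling on endothelial markers (adjusted p = 0.737). For Klf10 and Klf13 the log2 fold changes were -0.06 and 0.12, and each interval held 0. Klf5, at 0.260 to 0.720 FPKM in all 6 libraries, was below the filter.

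Of the KLF-related lists 0 genes were called in this comparison. The targets lowered by KLF2 and KLF4 had a median log2 fold change of 0.65, with 4 of 11 genes apart and higher (Edn1, Icam1, Sele and Selp, named after their values were seen), for example Icam1 at 200 ± 68.5 and 360 ± 24.0 FPKM (SD, n = 3 each). Without Fgfr1 loxP/loxP 3 the median of this list was 0.18. Of the 14 genes of the MEKK3-ERK5-MEF2 and CCM list, 13 were above 0 with a median of 0.12, 5 were apart and higher and 1, Mef2c, was apart and lower (3.42 ± 0.26 and 2.86 ± 0.16 FPKM, SD, n = 3 each), against 6.10% and 4.07% of all genes. Scaled on endothelial markers, 1 of the 14 was above 0 and 13 were below, with a median of -0.14, and the median of the lowered targets was 0.38. Immediate early genes had a median of -0.32, with 13 of 16 below 0. Of the 16, 3 were apart and lower and 0 apart and higher, beside 4.07% and 6.10% of all genes. Their median was -0.52 without Fgfr1 loxP/loxP 1, -0.09 without Fgfr1 loxP/loxP 2 and -0.06 without Fgfr1 iΔEC/iΔEC 1. Endothelial markers had a median of 0.33 with 9 of 10 above 0 and summed to 2263 to 2827 FPKM in the Fgfr1 loxP/loxP group and 2589 to 3536 FPKM in the Fgfr1 iΔEC/iΔEC group. Epithelial markers had a median of -0.82 with all 10 below 0, and summed to 923 to 2909 and 429 to 1101 FPKM. Of the markers of blood cells, 8 of 8 neutrophil genes (median -0.48), 6 of 6 lymphocyte genes (-0.42), 6 of 6 leukocyte genes (-0.24) and 7 of 8 macrophage genes (-0.08) were below 0. Their sums overlapped between the groups, at 1173 to 2596 and 752 to 2439 FPKM for neutrophils, 64.5 to 74.3 and 37.6 to 73.9 FPKM for lymphocytes, 458 to 606 and 308 to 674 FPKM for leukocytes and 1148 to 2742 and 901 to 1915 FPKM for macrophages. Fibroblast, mural and erythroid markers had medians of -0.23, -0.06 and 0.30. All genes tested had a median of 0.01. The part of these shifts in the values of the factors was not tested.

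Levels of the factors at the 2 LPS doses can be set side by side only as values, since the tables were normalized separately and the mice differ. In the LPS group (10 mg/kg) and the Fgfr1 loxP/loxP group (2 mg/kg) Klf2 was at 531.5 and 551.3 FPKM, Klf4 at 189.8 and 162.9 FPKM, Klf6 at 78.5 and 81.7 FPKM, and Klf9 at 28.2 and 27.5 FPKM.

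Across the 16 libraries, as deviations from the mean of each library's own group, several factors varied together. Klf3 and Klf9 were closest (Pearson r = 0.931, or 0.896 without saline 1). Next came Klf6 and Klf13 (0.897 and 0.774), Klf3 and Klf4 (0.862 and 0.731) and Klf9 and Klf13 (0.847 and 0.73). Klf3 and Klf13 (0.822 and 0.6), Klf4 and Klf9 (0.817 and 0.686) and Klf7 and Klf9 (0.809 and 0.858) followed. Klf10 and Klf11 were at 0.759 and 0.749. Klf2 varied less with the other factors. Its highest r was 0.248, with Klf4, and its lowest -0.52, with Klf10. The libraries share their mixture of cells and their depth, so these values are a description.

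Among 7366 genes whose mean reached 5 FPKM in both tables, those most like Klf4 in these deviations were Spry4 (r = 0.962), Ppm1a (0.952), Dusp8 (0.939), Adamts1 (0.923) and Bcr (0.922). Spry4 and Dusp8 encode inhibitors of kinase signaling. Most like Klf6 were Ppp1r18 (0.945), 1700017B05Rik (0.938), Stk17b (0.937), Nfil3 (0.936) and Fosl2 (0.93), of which Nfil3 and Fosl2 encode bZIP transcription factors. Without saline 1 these r values were 0.870 to 0.945 for Klf4 and 0.847 to 0.873 for Klf6. Most like Klf2 were Ces1d (0.813), Gt(ROSA)26Sor (0.793), Des (0.782), Orm1 (0.77) and Gm10736 (0.757), at 0.772 to 0.838 without saline 1.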

How the data were processed

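The authors sequenced RNA of bead-isolated pulmonary ECs on an Illumina NovaSeq, aligned reads to GRCm38 (mm10) with HISAT2 2.0.5, counted them on genes with featureCounts 1.5.0-p3 and tested them with DESeq2. They deposited FPKM and the gene length for 16 libraries in 2 tables, which were normalized separately. Strandedness and annotation release are not given in the sources used here. FPKM times length came to whole read numbers (within 0.05) for 100.0% of values, and the library sizes in the FPKM carry median-of-ratios factors. Gene symbols that had become dates in the table of the second experiment (11 genes) were taken from that of the first.

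Here log2(FPKM + 1) was compared with limma 3.58.1 in R 4.3.3 (lmFit, eBayes with trend) on genes whose mean reached 0.5 FPKM, with Benjamini-Hochberg adjustment over all genes tested and calls at 0.05 or less. Fold changes are on this log2 scale and understate changes of low genes. The fit was tested on simulated data that held no far library such as saline 1. A minimum recovery of changed genes was required for LPS against saline only, so that test sets no lower bound on recovery in the second experiment. Intervals cover the spread between libraries only, and reads are not independent molecules. Alternatives were another pseudocount, other filters, 4 other scalings, limma-voom on read numbers (4386 genes higher and 3629 lower in LPS), a replicate block, a fold limit and leaving out each library. Voom was run on FPKM-derived reads as an alternative because the unit is not a count. The genes and lists were chosen with earlier results of these data known. All 10 factors are named, and from each pathway list up to 4 called genes with the largest change and groups that do not overlap, apart from a gene that is not reported here. Gene coordinates are those of GENCODE M21 and the deposited table, which gave the same start and end for 9 of the 10 factors (not Klf9). In the second experiment libraries of the same replicate number deviated together (r = 0.248, 0.177 and 0.187), a pairing read from the data, and the block changed no call there. Tables used Python 3.11.15, numpy 2.4.6 and pandas 2.3.3, and figures matplotlib 3.10.9.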

Additional observations from a re-analysis of the deposited data

Results flagged for a closer look

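Values of the factors and sums of the marker lists were examined in the saline and LPS groups. Of these 38 groups of values, 8 held a library that lay far off the others, where chance gives about 1 in 20, or 1.9. All 8 were values of factors, and no marker sum was among them. The value given is the gap to the nearest library divided by the range of the group. Saline 1 was the far library, and the highest, for Klf3 (0.984, at 45.2 FPKM against 17.1 to 17.6 FPKM), Klf6 (0.927, at 74.1 FPKM against 26.8 to 30.2 FPKM), Klf13 (0.907, at 50.8 FPKM against 21.04 to 23.8 FPKM), Klf4 (0.875, at 221 FPKM against 65.1 to 84.5 FPKM), Klf9 (0.851, at 127 FPKM against 37.1 to 50.5 FPKM) and Klf7 (0.846, at 23.2 FPKM against 13.9 to 15.3 FPKM). For Klf11 saline 4 was the far library and the lowest (0.85, at 8.57 FPKM against 15.95 to 17.2 FPKM), and in the LPS group LPS 6 was the highest (0.827, at 11.5 FPKM against 7.57 to 8.26 FPKM). The 6 values of saline 1 come from 1 library and are not independent. Its cause was not tested.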

How the results depend on the processing

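In LPS against saline, of 20 alternatives (10 of them leaving out a library), Klf2 and Klf6 were called higher in each, Klf11 lost its call in 2, Klf9 in 3, Klf10 in 5, Klf7 in 9 and Klf4 in 13. Median-of-ratios scaling, among the 20, could only repeat the main fit, since its factor was 1.01702 in every library. Factors called higher numbered 2 with total FPKM scaling, quantile normalization, the replicate block or a log2 fold change of at least 1, and 2 to 5 when a library was left out. Factors called lower numbered 1 with no filter, 0 with endothelial scaling, 1 with the fold limit and 1 to 3 when a library was left out. Of 14893 genes, those higher numbered 2720 (total FPKM), 3645 (quantile normalization), 6819 (endothelial scaling) and 1768 (fold limit). Genes lower numbered 4869, 4174, 908 and 1011 in the same order. With no filter 4108 were higher and 3782 lower of 36342 genes, a larger set than in the main fit. The replicate block gave 3418 and 2587 of 15013. With a library left out, all genes higher numbered 3815 to 4606 and all genes lower 2890 to 3766.

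The sign turned for Klf3 with endothelial scaling (0.569) and when a library was left out (-0.185 to 0.265, above 0 without saline 1 or LPS 2), for Klf5 (-0.04) and Klf13 (-0.03) with total FPKM, and for Klf13 with quantile normalization (-0.083). With endothelial scaling it also turned for Sp1 (0.171), Kat2b (0.309), Crebbp (0.126), Acvrl1 (0.008) and Nos3 (0.516). In the second experiment 0 genes were called in each of 16 alternatives. The sign turned with endothelial scaling for Klf2 (-0.15), Klf6 (-0.16), Klf11 (-0.099) and Klf13 (-0.155). With a library left out, Klf6 ranged from -0.06 to 0.298 (below 0 without iΔEC/iΔEC 2), Klf10 from -0.18 to 0.037 and Klf13 from -0.025 to 0.23 (both turned without iΔEC/iΔEC 2 or loxP/loxP 2). The cause was not tested.

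With the replicate number as a block in LPS against saline (replicates 1 to 4 of each group), 3418 genes were higher and 2587 lower, and Klf2 (1.18) and Klf6 (1.12) remained higher and Klf7 (-1.20), Klf9 (-1.21) and Klf11 (-0.77) lower. Libraries of the same number correlated there at -0.209 to 0.097, so they share only a number. In the second experiment the block gave 0 calls, with 1150 genes at an unadjusted p under 0.05. Klf5 rested on 23 to 75 reads per library, and the part of depth in its values was not tested.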
